A study of Mus musculus with 2 samples.

Results

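The genes described here are the axon guidance receptors and ligands Robo1, Robo2, Robo3, Slit1, Slit2, Slit3, Dcc, Cntn2, Nrp1 and Nrp2, chosen by symbol, and all 10 were found among the 31053 genes of the count tables. Single cells were taken on day 9 of a differentiation of the mouse embryonic stem cell line MM13 toward spinal sensory interneurons. The groups were RA+BMP4 (retinoic acid with bone morphogenetic protein 4) and RA (retinoic acid alone), so both share RA, the MM13 line, dissociation in cold trypsin and removal of dead cells. Each condition was 1 library of 3′ tags counted as unique molecular identifiers (UMIs), so no replicate error could be measured and no difference was tested. Every interval in brackets is a 95% interval for counting error only. All 10 genes are protein coding. In the GENCODE vM21 annotation of GRCm38, Slit1 spans chr19:41600257-41743665, Slit2 chr5:47983138-48307733 and Slit3 chr11:35121224-35708507. Dcc spans chr18:71253634-72351069, Cntn2 chr1:132509427-132543256, Nrp1 chr8:128358604-128503363 and Nrp2 chr1:62703285-62818695.

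Growing spinal axons read secreted cues at the midline through these receptors. Slits, released by the floor plate and other midline cells, repel axons that carry Robo1 or Robo2. Robo3 is the divergent member that, in mouse, commissural axons need in order to cross the floor plate, and Dcc is the receptor through which netrin attracts them. Cntn2 (TAG-1) is an adhesion molecule on precrossing commissural axons, and the neuropilins Nrp1 and Nrp2 bind class 3 semaphorins. The Barhl genes mark dI1 neurons, the most dorsal spinal interneurons, of which some send axons across the midline and others keep them on their own side. In mouse, the LIM homeodomain proteins Lhx2 and Lhx9 are together needed for Robo3 expression in dI1 neurons.

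There were 13121 barcodes with 115268932 UMIs in RA+BMP4 and 9704 barcodes with 122110565 UMIs in RA. After filtering and removal of called doublets, 8352 RA+BMP4 cells and 5900 RA cells remained, with medians of 10465 and 14196 UMIs. The 2 libraries shared 21 of the kept barcodes. Cultures held more than neurons: pluripotent-like cells numbered 169 in RA+BMP4 and 321 in RA, and mesenchyme-like cells 923 and 436. Cells fell into 26 clusters, formed without the guidance genes or any marker gene and named from marker lists with the ending -like. The dI1-like class (clusters 2 and 11) held 1301 RA+BMP4 and 62 RA cells, the Atoh1 precursor-like class (cluster 12) 453 and 107, dI2-like 634 and 152, dI4/dILA-like 289 and 671, dI5/dILB-like 113 and 738, pan-neuronal-like 264 and 849, newborn neuron-like 356 and 309, and roof plate-like 2924 and 1079. Of the 5 roof plate-like clusters, clusters 8, 10 and 13 had no roof plate marker among their 10 leading genes.

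In the same annotation Robo1 and Robo2 lie on 1 chromosome, at chr16:72308306-73046095 on the plus strand and chr16:73891839-74411825 on the minus strand. Robo3 lies at chr9:37415669-37433246 on the minus strand. No promoter window of Slit1 or Dcc was searched, and whether RefSeq holds one for either gene is not given here. The RefSeq promoter windows used (GRCm38.p6, from 250 bases before to 50 bases after a start) covered 8 of the 10 genes, with 10 windows. They were searched on both strands for the homeodomain-type motif TAATTA, for its variant TAATTG, and for the E-box CAGCTG, the E-box CATATG and the E-box CACGTG, and 3 windows held at least 1 match. The share of all windows with at least 1 of the 5 motifs was not counted, so no excess can be read from these 3. They belong to Robo3 and to Robo2, which had 3 of the 10 windows, and are shown with the matches in capitals. The Robo3 window is chr9:37433126-37433425, the upstream Robo2 window chr16:75447244-75447543, and the Robo2 window at the start of the GENCODE gene span chr16:74411776-74412075, each on the minus strand.
Robo3: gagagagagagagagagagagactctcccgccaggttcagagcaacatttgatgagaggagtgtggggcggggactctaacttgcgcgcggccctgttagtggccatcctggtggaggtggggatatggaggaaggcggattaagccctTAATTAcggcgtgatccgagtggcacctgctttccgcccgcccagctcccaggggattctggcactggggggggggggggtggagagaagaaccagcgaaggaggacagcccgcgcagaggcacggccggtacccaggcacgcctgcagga
Robo2 upstream start: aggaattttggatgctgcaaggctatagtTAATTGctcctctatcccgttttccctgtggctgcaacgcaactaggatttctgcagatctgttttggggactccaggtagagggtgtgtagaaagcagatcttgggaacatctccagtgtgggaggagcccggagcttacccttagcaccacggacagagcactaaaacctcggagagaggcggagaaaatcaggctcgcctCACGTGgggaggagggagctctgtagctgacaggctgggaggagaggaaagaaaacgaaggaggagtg
Robo2 at the GENCODE start: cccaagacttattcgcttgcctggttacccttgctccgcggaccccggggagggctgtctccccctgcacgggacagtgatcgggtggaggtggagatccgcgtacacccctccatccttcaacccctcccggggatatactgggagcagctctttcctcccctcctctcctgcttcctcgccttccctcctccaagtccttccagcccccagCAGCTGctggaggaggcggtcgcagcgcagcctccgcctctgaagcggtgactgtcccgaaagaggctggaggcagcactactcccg
The Robo3 window held TAATTA 101 bases upstream of the start, a motif found in 5.29% of all 32851 windows. The upstream Robo2 window held TAATTG 221 bases upstream, found in 8.0% of windows, and CACGTG 18 bases upstream, found in 7.15%. The Robo2 window at the GENCODE start held CAGCTG 37 bases upstream, found in 16.3% of windows. The remaining Robo2 window and those of Robo1, Slit2, Slit3, Cntn2, Nrp1 and Nrp2 held none of the 5 motifs, and CATATG, found in 3.91% of all windows, was in none of the 10. A match describes the letters of the window and does not show binding.

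Summed over whole libraries, Robo2 was the single guidance gene of the 10 with a level at least 2-fold apart. Robo2 stood at 81.8 CPM (UMIs of a gene scaled to a common library total) in the RA+BMP4 library [80.0 to 83.5] and 31.3 CPM in the RA library [30.3 to 32.4], a log2 ratio of 1.38 [1.33 to 1.44]. Robo3 stood at 86.2 and 73.4 CPM in RA+BMP4 and RA, a log2 ratio of 0.23 [0.19 to 0.28], and Robo1 at 80.9 and 83.8 CPM, a log2 ratio of -0.05 [-0.09 to -0.01]. A gene counted as apart if it reached 20 CPM in either library and its levels differed at least 2-fold. Of 7152 genes that could be called, 0.825% were higher in RA+BMP4 and 0.601% lower, beside 1 of the 10 guidance genes higher and 0 lower. With a stricter cell filter (2000 genes or more, mitochondrial share up to 5%) 5 of the 10 were higher and 0 lower, where 1.48% of 7235 genes were higher and 1.02% lower, with log2 ratios of 1.65 for Robo2, 1.34 for Nrp2, 1.24 for Dcc, 1.06 for Slit3 and 1.02 for Cntn2, and Robo1 and Nrp1 turned to 0.28 and 0.31.

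The other genes lay within 2-fold, most of them on the higher side. Nrp2 had 163 CPM in RA+BMP4 and 90.0 CPM in RA (log2 ratio 0.86), and Dcc 61.9 and 38.1 CPM (0.70). The Slit genes had log2 ratios of 0.54 for Slit1, 0.50 for Slit2 and 0.54 for Slit3, and Cntn2 one of 0.35. For Nrp1, at 29.9 and 31.1 CPM, the interval of the log2 ratio ran from -0.13 to 0.01. The median log2 ratio of the 10 genes was 0.52, beside 0.07 over all genes compared. In a whole-library sum, fewer cells of a type and less RNA per cell cannot be told apart, and the class makeup differed between the libraries.

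**Figure D1:**
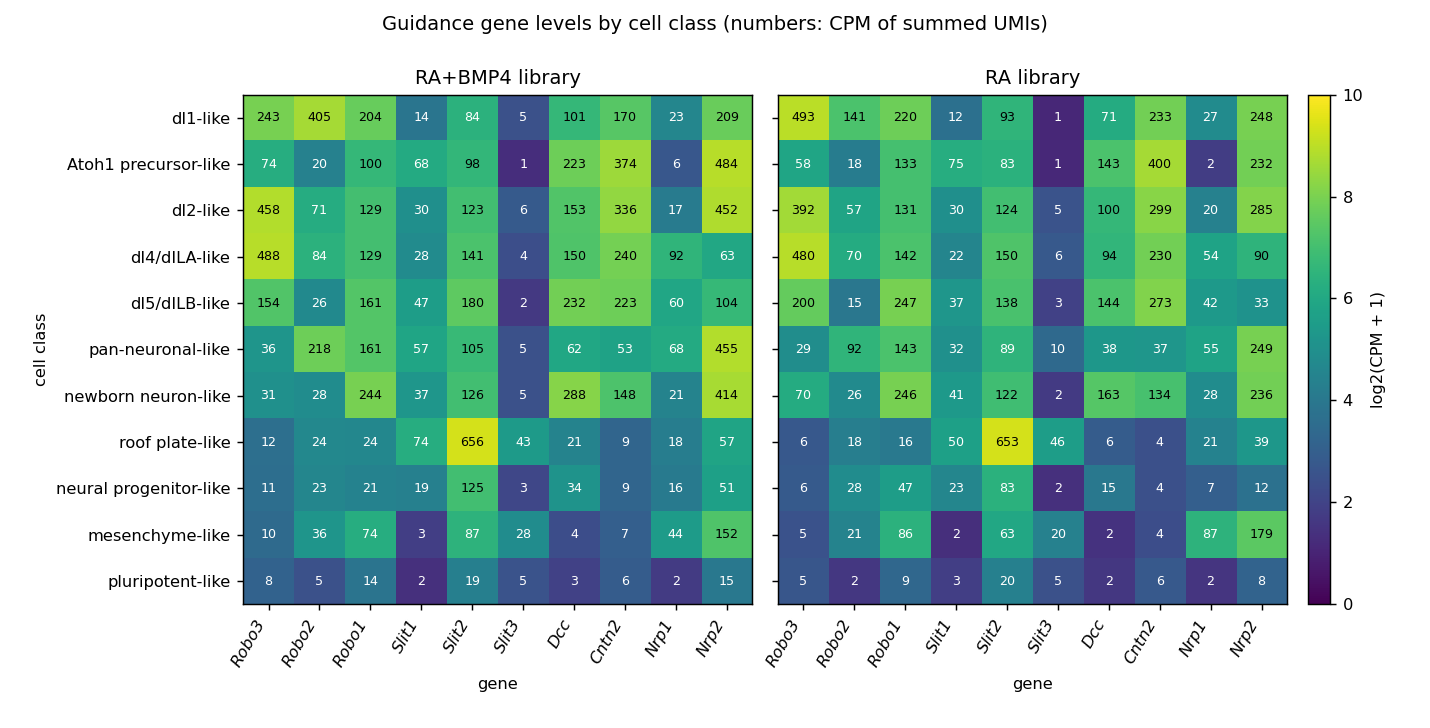
Levels of the 10 guidance genes (columns) in 11 cell classes (rows) of the RA+BMP4 library (left) and the RA library (right), with CPM of the summed UMIs as numbers and log2(CPM + 1) as colours. Slit2 is brightest in roof plate-like cells of both libraries (656 and 653 CPM), and in dI1-like neurons Robo2 has 405 CPM in RA+BMP4 and 141 CPM in RA, and Robo3 243 and 493 CPM.

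Most Slit2 and Slit3 UMIs lay in roof plate-like cells, as did most Slit1 UMIs in RA+BMP4. These cells held 79.1% of all Slit2 UMIs in RA+BMP4 and 68.2% in RA, 66.4% and 40.3% of Slit1 UMIs, and 68.4% and 65.0% of Slit3 UMIs, while they held 34.4% and 21.1% of the UMIs of all genes. Slit2 was at 656 CPM in RA+BMP4 roof plate-like cells [648 to 665] and 653 CPM in RA ones [643 to 664], a log2 ratio of 0.01 [-0.02 to 0.04]. The higher Slit2 of the whole RA+BMP4 library thus stood beside a larger share of roof plate-like cells and a near-equal level within them. After each cell was thinned to 5000 UMIs, a Slit2 UMI was found in 91.5% of RA+BMP4 and 90.3% of RA roof plate-like cells, against 10.1% and 5.02% of pluripotent-like cells. Without thinning these shares were 97.9% and 98.2% in roof plate-like cells and 40.2% and 33.0% in pluripotent-like cells, whose depth was greater.

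Slit1 was also highest in roof plate-like cells in RA+BMP4, at 74.2 CPM there and 50.2 CPM in RA (log2 ratio 0.56 [0.46 to 0.67]), but it did not keep to them. Atoh1 precursor-like cells had 68.2 CPM in RA+BMP4 [60.9 to 76.0] and 75.1 CPM in RA [62.3 to 89.8], and dI1-like neurons 13.6 and 11.8 CPM. Slit3 was near absent from neurons, with 4.54 CPM in RA+BMP4 and 1.18 CPM in RA in dI1-like cells, and was found in roof plate-like cells (43.1 and 45.9 CPM) and mesenchyme-like cells (27.8 and 19.9 CPM). Slit2 was present in every neuron class, between 84.1 CPM in dI1-like and 180.5 CPM in dI5/dILB-like neurons of RA+BMP4, and between 82.6 CPM in Atoh1 precursor-like and 150.0 CPM in dI4/dILA-like neurons of RA.

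The roof plate-like clusters differed in Slit1 and Slit3 more than in Slit2. Slit2 ranged from 561 CPM in cluster 10, led by mitotic genes, to 701 CPM in cluster 0, led by Pla2g7, Wnt1 and Rspo3, in RA+BMP4, and from 494 to 741 CPM in the same clusters in RA. Slit3 was highest in cluster 8, led by Cp and Colec12, at 70.9 CPM in RA+BMP4 and 71.4 CPM in RA, against 46.2 and 38.0 CPM in cluster 0 and 27.7 and 27.5 CPM in cluster 10. Slit1 was instead lower in cluster 8 than in cluster 0, with 48.1 CPM in RA+BMP4 and 31.4 CPM in RA in cluster 8 and 85.8 and 85.3 CPM in cluster 0. Within cluster 0 the Slit1 levels of the libraries differed by less than their counting error (log2 ratio 0.01 [-0.18 to 0.20]). Cluster 0 held 1780 of the 2924 RA+BMP4 roof plate-like cells and 221 of the 1079 RA ones, of which cluster 8 held 374, so the class was made up differently in the 2 libraries.

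**Figure D2:**
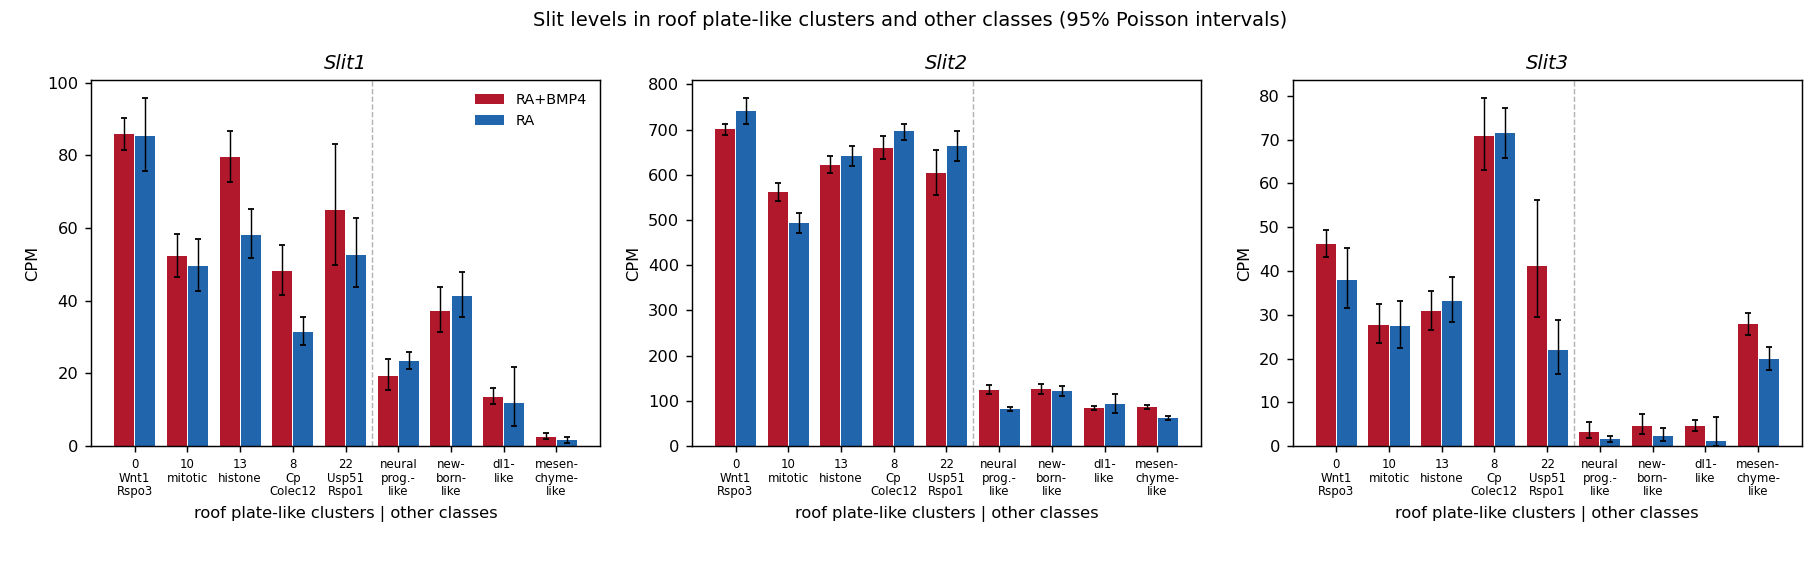
Levels of Slit1, Slit2 and Slit3 (CPM, vertical axes starting at 0) in the 5 roof plate-like clusters, left of the dashed line, and in 4 other classes, right of it; each pair of bars is RA+BMP4 and then RA, with 95% Poisson intervals. Slit2 is between 494 and 741 CPM in each roof plate-like cluster and 125 CPM or less in neural progenitor-like and dI1-like cells, and Slit3 peaks in cluster 8.

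Of the receptors, roof plate-like cells had 23.7 CPM of Robo1 in RA+BMP4 and 15.6 CPM in RA, and 24.4 and 18.5 CPM of Robo2. Nrp2 was higher, at 56.7 CPM in RA+BMP4 and 38.7 CPM in RA, and Nrp1 had 17.7 and 20.7 CPM. Dcc had 21.1 CPM in RA+BMP4 [19.6 to 22.6] and 6.46 CPM in RA [5.47 to 7.59], a log2 ratio of 1.70 [1.45 to 1.97], and was the single guidance gene called in this class, where 2.61% of 7017 genes were called in either direction. Dcc passed the 20 CPM minimum through RA+BMP4 alone. The neuronal genes Robo3 (11.7 and 5.73 CPM) and Cntn2 (8.61 and 4.43 CPM) had log2 ratios of 1.03 and 0.96 in the same cells. Their levels lay under that minimum in both libraries. In mesenchyme-like cells, which are not neural, the RA+BMP4 and RA levels were 4.13 and 1.73 CPM for Dcc, 9.87 and 4.77 CPM for Robo3 and 7.12 and 4.19 CPM for Cntn2. The part of free RNA in the Dcc value was not tested.

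Dcc was higher in RA+BMP4 in each of the 11 compared classes, by less than 2-fold in the neuron classes. Its log2 ratio was 0.52 in dI1-like, 0.64 in Atoh1 precursor-like, 0.61 in dI2-like, 0.67 in dI4/dILA-like, 0.69 in both dI5/dILB-like and pan-neuronal-like and 0.82 in newborn neuron-like cells. The ratios of neural progenitor-like (1.18), mesenchyme-like (1.26) and pluripotent-like cells (0.46) were also positive, with an interval that reached below 0 in pluripotent-like cells [-0.42 to 1.29]. In mesenchyme-like (4.13 and 1.73 CPM) and pluripotent-like cells (2.79 and 2.04 CPM) Dcc lay under the 20 CPM minimum in both libraries. The highest Dcc levels were in newborn neuron-like cells, 288 CPM in RA+BMP4 [271 to 306] and 163 CPM in RA [152 to 176]. The RA+BMP4 and RA levels were 223 and 143 CPM in Atoh1 precursor-like, 153 and 100.4 CPM in dI2-like and 101 and 70.9 CPM in dI1-like cells.

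Robo1 was found in every neuron class. Its levels lay between 99.5 CPM in Atoh1 precursor-like and 244 CPM in newborn neuron-like cells of RA+BMP4, and between 131 CPM in dI2-like and 247 CPM in dI5/dILB-like cells of RA. None of the 7 neuron classes differed by 2-fold between the libraries. In neural progenitor-like cells Robo1 had 20.9 CPM in RA+BMP4 and 46.9 CPM in RA (log2 ratio -1.17 [-1.49 to -0.85]), and it was 1 of 3 guidance genes called in a class where 1.70% of 6688 genes were called.

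The neuron types that held most Robo3 UMIs differed between the 2 libraries, as did the sizes of these classes. In RA+BMP4, dI2-like neurons held 35.3% of Robo3 UMIs, dI1-like 33.5% and dI4/dILA-like 13%. These classes held 6.63%, 11.9% and 2.30% of the UMIs of all genes there. In RA, dI4/dILA-like neurons held 46.9% of Robo3 UMIs, dI5/dILB-like 21.6%, dI2-like 11.1% and dI1-like 5.21%. In that library these classes held 7.16%, 7.92%, 2.07% and 0.776% of the UMIs of all genes. Within a type, the Robo3 level differed less. It was 458 CPM in RA+BMP4 and 392 CPM in RA in dI2-like neurons. It was 488 and 480.1 CPM in dI4/dILA-like neurons, and 154 and 200.3 CPM in dI5/dILB-like neurons. In the dI2-like and dI4/dILA-like classes, 1.44% and 1.62% of all genes were called apart, and 0 of the 10 guidance genes were.

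Robo3 was 2-fold or more lower in RA+BMP4 in 2 classes. In newborn neuron-like cells it had 31.2 CPM in RA+BMP4 [25.9 to 37.3] and 70.0 CPM in RA [62.3 to 78.3], a log2 ratio of -1.17, where 1.46% of 6486 genes were called in either direction. With each library clustered alone this ratio was 0.40, and with a stricter cell filter 0.19, so its direction rests on which cells are counted. In dI1-like neurons Robo3 had 243 CPM in RA+BMP4 [234 to 252] and 493 CPM in RA [447 to 542], a log2 ratio of -1.02, and Robo2 405 CPM [394 to 417] and 141 CPM [116 to 168], a log2 ratio of 1.53. These were the 2 guidance genes called in that class, where 4.26% of 7087 genes were called in either direction. The direction of Robo3 there also turned when each library was clustered alone (0.72). Of the class, cluster 2 held 790 RA+BMP4 and 12 RA cells and cluster 11 held 511 and 50. Robo3 had 533 CPM in RA+BMP4 and 586 CPM in RA in cluster 11, and 33.1 and 21.4 CPM in cluster 2. Robo2 had 74.0 and 46.7 CPM in cluster 11, and 645 and 614 CPM in cluster 2. The part of this makeup in the class ratios was not tested.

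Robo2 was spread differently. The dI1-like neurons held 58.9% of its UMIs in RA+BMP4 and 3.49% in RA, and pan-neuronal-like cells 7.94% and 33.2%. Of the UMIs of all genes, dI1-like neurons held 11.9% in RA+BMP4 and 0.776% in RA, and pan-neuronal-like cells 2.98% and 11.3%. In pan-neuronal-like cells the Robo2 level was 218 CPM in RA+BMP4 [202 to 235] and 92.1 CPM in RA [86.8 to 97.6], a log2 ratio of 1.24. In this class 1.43% of 7011 genes were called in either direction. Of that class, cluster 16 held 172 RA+BMP4 and 308 RA cells and had 253 and 90.3 CPM of Robo2, while cluster 9 held 92 and 541 cells and had 149 and 93.1 CPM. Robo2 was low in dI5/dILB-like neurons, at 26.1 and 14.7 CPM.

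Cntn2 was highest in Atoh1 precursor-like cells, with 374 CPM in RA+BMP4 and 399.8 CPM in RA. It had 336 CPM in RA+BMP4 and 299 CPM in RA in dI2-like, 240.2 and 230.0 CPM in dI4/dILA-like and 223 and 273 CPM in dI5/dILB-like neurons. In dI1-like neurons it had 170.1 and 233 CPM, in newborn neuron-like cells 148 and 134 CPM, and in pan-neuronal-like cells 52.7 and 36.9 CPM. Its levels lay within 2-fold in each of the 7 neuron classes.

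The neuropilins differed in where they were high. Nrp2 was high in Atoh1 precursor-like cells, with 484 CPM in RA+BMP4 and 232 CPM in RA (log2 ratio 1.06 [0.90 to 1.22]), where 2.58% of 6752 genes were called in either direction, and in dI2-like (452 and 285 CPM), pan-neuronal-like (455 and 249 CPM) and newborn neuron-like cells (414 and 236 CPM). In dI1-like neurons it had 209 and 248 CPM. It was low in dI4/dILA-like neurons, at 62.7 and 90.4 CPM. In dI5/dILB-like neurons Nrp2 had 104 CPM in RA+BMP4 and 33.0 CPM in RA (log2 ratio 1.66 [1.31 to 2.0]), where 3.43% of 6964 genes were called in either direction. Under the stricter cell filter this ratio was 0.76.

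Nrp1 was at 370.4 CPM in the 13 endothelium-like cells of RA+BMP4 and at 211 CPM [192 to 231] in its 114 neural crest and glia-like cells, classes with 2 and 1 cells in RA. Among RA+BMP4 neurons it was highest in dI4/dILA-like cells, at 92.1 CPM, against 54.1 CPM in RA, where pan-neuronal-like cells had 54.6 CPM. Mesenchyme-like cells had 43.9 CPM in RA+BMP4 and 86.7 CPM in RA (log2 ratio -0.98 [-1.12 to -0.85]). The dI4/dILA-like clusters were unlike one another: Nrp1 had 122 CPM in RA+BMP4 and 71.4 CPM in RA in cluster 5, and 17.9 and 19.5 CPM in cluster 21. In neural progenitor-like cells, where Robo1 and Dcc were also called, Nrp2 was at 50.9 and 12.2 CPM (log2 ratio 2.06 [1.78 to 2.35]). There Nrp2 and Dcc (34.2 and 15.1 CPM) passed the 20 CPM minimum through RA+BMP4 alone. Over the 7 neuron classes and the roof plate-like class, 5 pairs of a gene and a class were called higher in RA+BMP4 and 2 lower. In these classes between 1.43% and 4.26% of all genes were called in either direction. The number of pairs that reached the 20 CPM minimum was not counted, so no excess can be read from these calls.

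The Robo3 share, the percent of Robo3 among the Robo2 and Robo3 UMIs of a group of cells, is a ratio of counts within the same cells and does not depend on library scaling. It is read here between groups of cells and not as a comparison of protein. Barhl cells were defined without clusters, as cells with at least 2 UMIs of Barhl1 and Barhl2 together, and numbered 1580 in RA+BMP4 and 146 in RA. Their Robo3 share was 40.9% in RA+BMP4 [39.8 to 42.0], from 3150 Robo3 and 4548 Robo2 UMIs, and 76.0% in RA [72.2 to 79.4], from 433 and 137 UMIs. The level of Robo3 in Barhl cells was similar, 201 CPM in RA+BMP4 [194 to 208] and 187 CPM in RA [169 to 205], whereas Robo2 was at 289.6 CPM [281 to 298] and 59.0 CPM [49.5 to 69.8].

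In the 3 clusters that held most Barhl cells, the intervals of the libraries overlapped. In the Atoh1 precursor-like cluster 12 it was 82.2% in RA+BMP4 [77.8 to 86.0] and 75.5% in RA [66.0 to 83.5]. In the dI1-like cluster 11 it was 87.7% [86.4 to 88.9] and 90.3% [86.5 to 93.3], and in the dI1-like cluster 2 it was 4.94% [4.31 to 5.64] and 2.53% [0.308 to 8.85], the last from 10 cells. Outside these clusters and the unnamed, shallow cluster 20 it was 65.0% in RA+BMP4 [59.2 to 70.4], from 71 cells, and 94.1% in RA [85.6 to 98.4], from 8 cells, and these intervals did not overlap. Nor did those of all cells of cluster 11, with or without Barhl UMIs, at 87.8% in RA+BMP4 [86.6 to 89.0] and 92.6% in RA [89.8 to 94.9]. The intervals treat each UMI as independent and leave out the spread between cells. The 64 Robo3 UMIs of the 8 RA cells came from 4 of them. The makeup also differed: of RA+BMP4 Barhl cells 41.3% lay in cluster 2, 28.2% in cluster 11 and 21.1% in cluster 12, and of RA Barhl cells 6.85%, 24.7% and 61.0%. The part of the makeup in the difference of the share was not tested. Without cluster 2, a choice made after seeing the data, the share of the remaining Barhl cells was 84.3% in RA+BMP4 and 87.8% in RA.

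**Figure D3:**
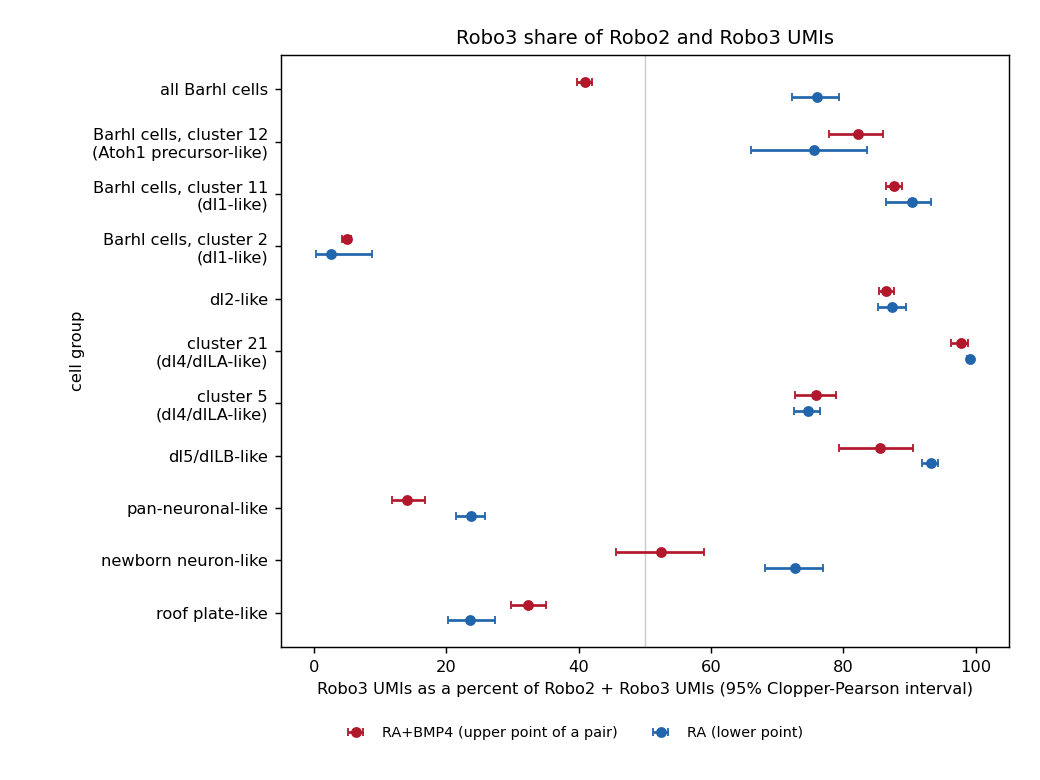
Robo3 UMIs as a percent of Robo2 plus Robo3 UMIs (horizontal axis) in groups of cells (vertical axis); the upper point of each pair is RA+BMP4 and the lower RA, with 95% Clopper-Pearson intervals. All Barhl cells are at 40.9% in RA+BMP4 and 76.0% in RA, while the intervals of Barhl cells overlap within clusters 12, 11 and 2, and cluster 2 lies under 6%.

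Most other neuron types lay on one side of this scale. The Robo3 share was 86.5% in RA+BMP4 and 87.4% in RA dI2-like neurons, and 85.5% and 93.2% in dI5/dILB-like neurons. Of the dI4/dILA-like clusters, cluster 21, led by Pax2, had 844 and 846 CPM of Robo3 and a share of 97.8% in RA+BMP4 and 99.2% in RA. Cluster 5, led by Cartpt, Pax8 and Gad2, had 346 and 296 CPM of Robo3 and 110.0 and 101 CPM of Robo2, a share of 75.9% and 74.6%. The pan-neuronal-like cluster 16 was on the Robo2 side, at 10.5% in RA+BMP4 and 10.3% in RA, and newborn neuron-like cells lay between, at 52.4% and 72.7%.

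In single Barhl cells, thinned to 5000 UMIs, detection of Robo2 and Robo3 fell into 4 states. Of 1486 RA+BMP4 Barhl cells, 26.4% had a Robo3 UMI only, 8.88% both [7.49 to 10.4], 38.8% a Robo2 UMI only and 25.9% neither. Of 144 RA Barhl cells the percentages were 25.7%, 4.17% [1.54 to 8.85], 13.2% and 56.9%. The product of the 2 detection shares was 16.8% in RA+BMP4 and 5.18% in RA. In RA+BMP4 the cells with both were thus fewer than that product over all Barhl cells, but within cluster 2 both were found in 10.3% of cells beside a product of 10.8%, and within cluster 11 in 13% beside 17.1%. A Robo3 UMI was found in 4.51% of RA+BMP4 and 2.09% of RA mesenchyme-like cells, and the part of free RNA in the states was not tested.

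**Figure D4:**
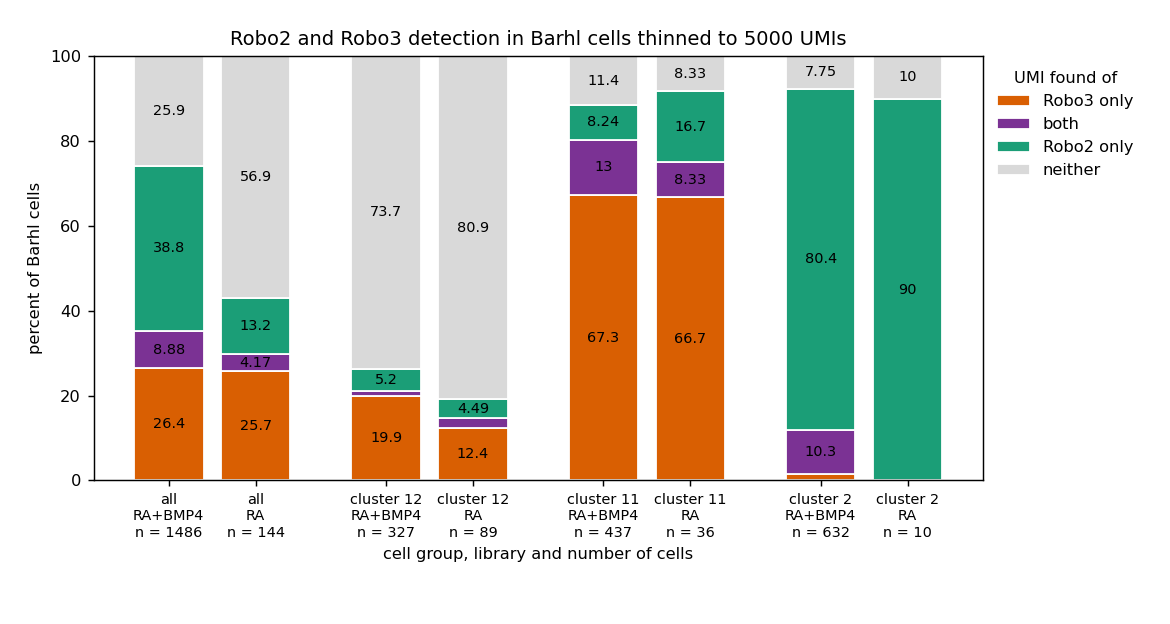
Percent of Barhl cells, thinned to 5000 UMIs, with a UMI of Robo3 only, of both genes, of Robo2 only or of neither, in all Barhl cells and in clusters 12, 11 and 2, RA+BMP4 left of RA in each pair with the number of cells below. In RA+BMP4 67.3% of cluster 11 cells are Robo3 only and 80.4% of cluster 2 cells are Robo2 only, and 73.7% of cluster 12 cells have neither.

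The states of RA+BMP4 fell largely in different clusters, and those of RA less so. In RA+BMP4, 74.8% of the Robo3-only cells lay in cluster 11 and 88.2% of the Robo2-only cells in cluster 2. The cells with both were divided, 43.2% in cluster 11 and 49.2% in cluster 2, and 62.6% of the cells with neither lay in cluster 12. In RA, 64.9% of the Robo3-only cells lay in cluster 11 and 29.7% in cluster 12, and 87.8% of the cells with neither in cluster 12. Of the 19 Robo2-only cells of RA, 47.4% lay in cluster 2, 31.6% in cluster 11 and 21.1% in cluster 12. Before thinning, the RA+BMP4 states had medians of 9428, 9250, 8980 and 10661 UMIs in the order Robo3 only, both, Robo2 only and neither, and median doublet scores of 0.0303, 0.0390, 0.0256 and 0.0303. The RA states had medians of 12234, 18264, 11610 and 15058 UMIs in the same order.

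Identity genes differed between the states, although of these only Barhl1 and Barhl2 were used to choose the cells. Lhx2 had 102 CPM in Robo3-only cells of RA+BMP4 [88.6 to 117], 21.2 CPM in cells with both [11.6 to 35.6] and 2.78 CPM in Robo2-only cells [1.20 to 5.47]. In RA, Robo3-only cells had 151 CPM of Lhx2 and the 19 Robo2-only cells 0 [0 to 38.8]. Pou4f1, a POU homeodomain factor, had 61.1, 19.7 and 7.99 CPM in those states of RA+BMP4. Lhx9 did not follow the same order in RA+BMP4, with 101 CPM in Robo3-only, 22.7 CPM in both and 75.7 CPM in Robo2-only cells. An Lhx9 UMI was found in 26.2%, 8.33% and 13.7% of these cells. In RA, Lhx9 had 103 CPM in Robo3-only cells and 0 in the 19 Robo2-only cells [0 to 38.8], as Lhx2 did. Barhl2 was similar in Robo3-only and Robo2-only cells of RA+BMP4 (365 and 329 CPM), while Barhl1 was at 155 and 352 CPM.

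Splitting Barhl cells, without thinning, by a UMI of Lhx2 gave the same contrast from the other side. Barhl cells with an Lhx2 UMI had a Robo3 share of 92.2% in RA+BMP4 [90.3 to 93.9] and 97.7% in RA [94.7 to 99.2], and those without it 33.9% and 62.7%. With a Pou4f1 UMI the share was 73.1% in RA+BMP4 and 92.9% in RA, and without it 33.1% and 56.1%. With an Lhx9 UMI it was 66.5% and 93.7%, and without it 33.5% and 63.1%. Of the genes of precursors and maturing neurons, Snap25, a synaptic gene, gave 42.4% in RA+BMP4 and 77.2% in RA with a UMI, and 38.6% and 74.2% without. The split by Rbfox3 (NeuN), a marker of mature neurons, was wider in RA+BMP4, at 32.4% in RA+BMP4 and 75.3% in RA with a UMI and 53.9% and 76.8% without. With a Sorcs3 UMI the share was 32.7% in RA+BMP4 and 64.1% in RA, and without it 67.6% and 90.0%. With an Slc17a6 UMI it was 39.6% and 74.3%, and without it 45.5% and 81.2%. The libraries went opposite ways for Atoh1, with 54.6% in RA+BMP4 and 58.0% in RA with a UMI and 40.2% and 77.7% without.

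Genes of precursors and of maturing neurons were not arranged along a single line. Atoh1, the proneural factor of dI1 precursors, had 153 CPM in RA+BMP4 cells with neither Robo, against 21.4 CPM in Robo3-only, 9.09 CPM in both and 18.4 CPM in Robo2-only cells, and Hes6 and Nhlh1 were likewise highest in cells with neither (325 and 87.8 CPM). Rbfox3 had 62.1 CPM in Robo3-only, 102 CPM in both and 135 CPM in Robo2-only cells of RA+BMP4, and Syt1 297, 409 and 455 CPM. Scg2 was at 5.09, 7.58 and 17.4 CPM. Tubb3 (2508, 1595 and 1377 CPM), Elavl4 (426, 333 and 315 CPM) and Nefm (308, 130.3 and 192 CPM) were highest in Robo3-only cells. Nefl (826, 536 and 642 CPM) and Stmn2 (1575, 1427 and 1420 CPM) were also highest there. Map2 (886, 877 and 896 CPM), Snap25 (96.7, 106 and 103 CPM) and Slc17a6, the vesicular glutamate transporter (242, 253 and 258 CPM), differed little between the states with a Robo UMI. In RA+BMP4 cells with neither, Map2 had 882 CPM and Snap25 85.2 CPM, but Slc17a6 had 80.5 CPM and Syt1 157 CPM. Kctd4 (18.3, 87.9 and 158 CPM), Cntn3 (73.8, 182 and 228 CPM) and Sorcs3 (118, 327 and 338 CPM) were higher with Robo2, and Nrn1 (170.5, 123 and 96.9 CPM) with Robo3. The order of Rbfox3 did not repeat in RA, where the intervals overlapped. There Rbfox3 had 81.1 CPM in Robo3-only [45.4 to 134] and 52.6 CPM in Robo2-only cells [17.1 to 123]. Syt1 had 243 and 347 CPM in these RA states.

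Cntn2 and Nrp2 were higher in Robo3-only than in Robo2-only cells of both libraries. Cntn2 had 392 CPM in Robo3-only [365 to 421], 129 CPM in both and 86.1 CPM in Robo2-only cells [75.7 to 97.5] of RA+BMP4, and in RA 335 CPM in Robo3-only and 116 CPM in Robo2-only cells. Nrp2 had 402, 189 and 121 CPM in those states of RA+BMP4, and 259 CPM in Robo3-only and 84.2 CPM in Robo2-only cells of RA. Both were also high in RA+BMP4 cells with neither Robo, at 322 CPM of Cntn2 and 401 CPM of Nrp2, the state found mostly in the Atoh1 precursor-like cluster. Dcc was at 148, 83.3 and 86.5 CPM, with 183 CPM in cells with neither, but in RA it had 86.5 CPM in Robo3-only [49.4 to 140.4] and 94.7 CPM in Robo2-only cells [43.3 to 179.8]. Robo1 was at 193, 227 and 199 CPM, so it did not separate the states, and was lowest in cells with neither, 120.0 CPM.

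**Figure D5:**
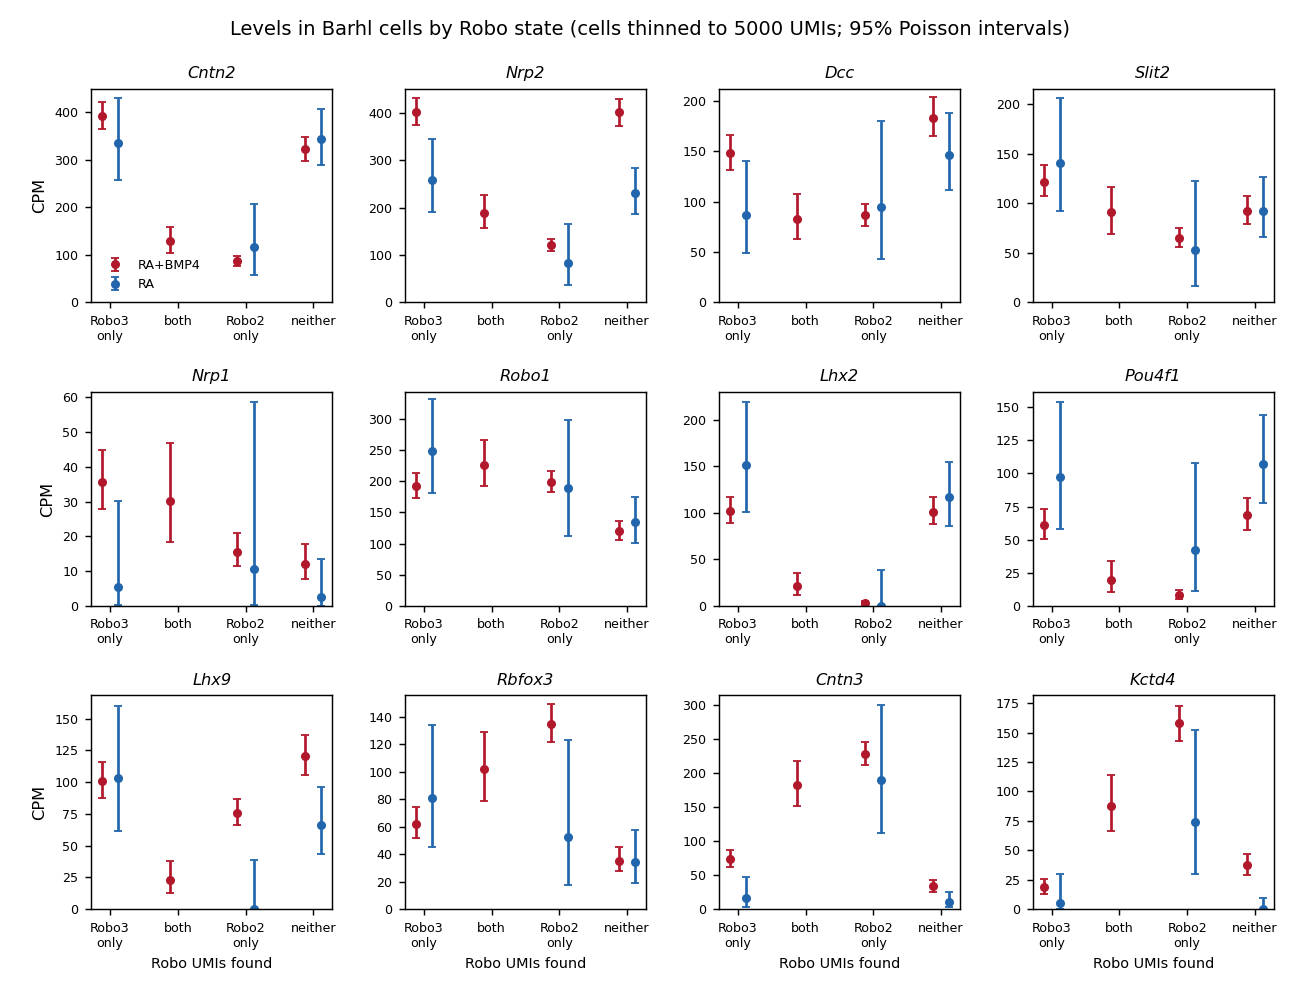
Levels (CPM, vertical axes) of 12 genes in Barhl cells of each Robo state (horizontal axes), thinned to 5000 UMIs, in RA+BMP4 and RA with 95% Poisson intervals; the RA state with both genes, of 6 cells, is not drawn. Cntn2, Nrp2, Lhx2 and Pou4f1 are lower in Robo2-only than in Robo3-only cells of RA+BMP4, Cntn3, Kctd4 and Rbfox3 are higher, and Robo1 is level.

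The 2 dI1-like clusters of RA+BMP4 gave the same contrast without thinning. The clusters had been formed without these genes. Robo3 had 533 CPM in cluster 11 (511 cells) and 33.1 CPM in cluster 2 (790 cells), a log2 ratio of 4.01 [3.82 to 4.21], and Robo2 74.0 and 645 CPM, a log2 ratio of -3.12 [-3.28 to -2.97]. Cntn2 was at 310.2 and 68.9 CPM (2.17) and Nrp2 at 365 and 96.7 CPM (1.92). Of 7111 genes compared between the clusters, 1.88% were called higher in cluster 11 and 2.73% lower, beside 3 and 1 of the 10 guidance genes. Robo1 (210.1 and 200.0 CPM), Dcc (126 and 84.0 CPM) and Slit2 (108 and 66.6 CPM) lay within 2-fold. In RA, cluster 11 (50 cells) and cluster 2 (12 cells) had 586 and 21.4 CPM of Robo3 and 46.7 and 614 CPM of Robo2.

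A list of 55 other guidance genes of the same pathways was set beside these, of which 27 reached 20 CPM in a whole library. Cntn3, a contactin related to Cntn2, was the single one at least 2-fold apart, with 27.6 CPM in RA+BMP4 and 8.06 CPM in RA (log2 ratio 1.78 [1.67 to 1.89]), and 0 were lower. Cntn3 passed the 20 CPM minimum through RA+BMP4 alone. The median log2 ratio of the 27 genes was 0.11. Of the netrin receptors and ligands, Neo1 had 121 CPM in RA+BMP4 and 85.1 CPM in RA, Unc5c 45.3 and 30.7 CPM, and Draxin, which binds Dcc, 27.5 and 25.5 CPM. Of the Robo partners, the Robo-binding GTPase activating proteins Srgap1 and Srgap3 had 119.6 and 112 CPM in RA+BMP4, against 82.5 and 108 CPM in RA, and Nell2, a ligand of Robo3, had 84.5 and 65.0 CPM.

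The Sonic hedgehog receptors of the list did not go one way. Gas1 had 238 CPM in RA+BMP4 and 189.6 CPM in RA, Cdon 113 and 92.1 CPM, and Boc 20.1 and 31.2 CPM (log2 ratio -0.64 [-0.72 to -0.56]). Of the contactins and the L1 family of adhesion molecules, Nrcam had 159 and 114 CPM, Chl1 47.3 and 33.4 CPM, and Nfasc 27.1 and 31.0 CPM. Among the ligands and coreceptors of neuropilins, Plxna2 had 76.3 CPM in RA+BMP4 and 102 CPM in RA, Sema3a 46.0 and 44.5 CPM, and Vegfa 45.8 and 31.0 CPM. Of the Wnt pathway genes of axon guidance, Fzd3, Ryk and Vangl2 had 275, 105 and 95.5 CPM in RA+BMP4, against 224, 105 and 102 CPM in RA.

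The listed genes were also compared between the dI1-like clusters of RA+BMP4. Of 31 listed genes that could be called, 0 were higher and 9 lower in cluster 11, beside 1.88% higher and 2.73% lower of all 7111 genes. The median log2 ratio of the 31 was -0.09, beside -0.02 over all genes compared. Of the 9, Dscam, Cntn5, Sema3a and Flrt2 passed the 20 CPM minimum through cluster 2 alone. The repellent netrin receptor Unc5d had 20.1 CPM in cluster 11 and 99.6 CPM in cluster 2 (-2.31 [-2.63 to -2.01]), and Dscam 12 and 45.6 CPM. The adhesion molecules Chl1 (66.7 and 313 CPM), L1cam (34.6 and 132 CPM), Cntn5 (8.07 and 70.5 CPM), Cntn3 (92.5 and 216 CPM) and Cntn1 (27.1 and 60.9 CPM) were also lower in cluster 11. So were Sema3a, a repellent bound by Nrp1 (7.47 and 49.4 CPM), and Flrt2 (4.92 and 24.7 CPM). Nell2 was at 259.7 CPM in cluster 11 and 135 CPM in cluster 2, a log2 ratio of 0.95.

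Over 46 sums of a cluster in a library with at least 50 cells, Robo3 and Robo2 had different companions. The genes whose log2(CPM + 1) followed Robo3 most closely were Map3k13 (Pearson r 0.91), Cntn2 (0.91), Rgmb (0.90), Uncx (0.88) and Msantd2 (0.88). For Robo2 they were Iglon5 (0.85), Tro (0.82), Khdrbs2 (0.82), Dlg2 (0.81) and Rgs7 (0.81). Among the 10 guidance genes, Dcc and Cntn2 had r of 0.87 and Robo2 and Robo3 0.24. The sums share 2 libraries and differ in depth, and r is given as a description over 10047 genes compared.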

How the data were processed

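Each library came as whole UMI counts for every gene and barcode, as deposited by the authors and per the file headers. Cell Ranger 3.0.2, CASAVA and GRCm38 are named in the submitters' processing notes. How cells were called and which annotation release was used is not given in the sources used here. All guidance genes, gene lists and cell choices were made with earlier results of these data known.

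Kept cells had 1000 or more genes and no more than 10% mitochondrial UMIs, and doublets called by scrublet in scanpy 1.11.5 (expected rate 8%) were removed, 298 in RA+BMP4 and 138 in RA. Both libraries were clustered together with leidenalg 0.10.2 (3000 variable genes, 30 principal components, 20 neighbours, resolution 1), leaving out the guidance genes, marker lists, mitochondrial and ribosomal genes. UMIs were summed per class and given as CPM with exact Poisson intervals, ratios with exact conditional binomial intervals and shares with Clopper-Pearson intervals (scipy 1.17.1). A library with fewer than 3 counts was set to 3 in a ratio. For shares of cells and for the Robo states, each cell was thinned to 5000 UMIs, which left out 573 RA+BMP4 and 187 RA cells. Scripts were tested on simulated data. Alternatives included TMM factors (edgeR 4.0.16).

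All 10 guidance genes are plotted by class, and the text gives a selection of their levels. Of the listed guidance genes the text names those past 2-fold and the 3 with the highest levels of each subgroup, and for Robo2 and Robo3 the 5 genes with the highest r. Nell2 between the dI1-like clusters was named after its value was seen.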

Additional observations from a re-analysis of the deposited data

How the results depend on the processing

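With 1 library per condition and counting error alone, no alternative measures the spread between cultures. No paired analysis was possible because each condition has 1 library. The stricter cell filter (at least 2000 genes, at most 5% mitochondrial UMIs) gave 5 guidance genes at least 2-fold higher in whole libraries (1 as reported), 2 higher and 1 lower of the listed genes and a list median of 0.35. Under that filter 1.48% of all genes were higher and 1.02% lower. A minimum of 1 CPM in place of 20 gave 5 of 52 listed genes higher. The share of all genes called at 1 CPM is not given here, so the 5 cannot be set beside it. The number of gene and class pairs called higher, 5 as reported, was 6 under the stricter filter or with doublets kept. It was 4 at resolution 1.5 and 5 with each library clustered alone. The number of pairs called lower, 2 as reported, was 0 under the stricter filter. It was 1 with doublets kept, at resolution 1.5 or with each library clustered alone. With libraries clustered alone that pair was neither of the 2 reported, whose ratios both turned positive. Of the 8 classes, 5 were compared under the stricter filter (dI1-like cells were not), 8 with doublets kept, 7 at resolution 1.5 and 6 with libraries clustered alone. The log2 ratio of Robo3 in dI1-like and newborn neuron-like cells was -1.12 and -0.97 with doublets kept and -0.26 and -1.12 at resolution 1.5. The log2 ratio of Robo3 in newborn neuron-like cells (-1.17) was 0.19 under the stricter filter and 0.40 with libraries clustered alone, and in dI1-like cells (-1.02) it was 0.72 with libraries clustered alone. The cause was not tested.

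The Robo3 share of RA+BMP4 Barhl cells (40.9%) was 42.1% under the stricter filter, 42.3% with at least 1 Barhl UMI or with cells weighted equally, 37.5% with at least 4 Barhl UMIs or in dI1-like clusters, and, in alternatives chosen after seeing the data, 84.3% without cluster 2 and 39.7% in the dI1-like and Atoh1 precursor-like clusters. In RA (76.0%) it was 64.1% under the stricter filter (19 cells), 64.5% with cells weighted equally and 87.8% without cluster 2. The share of cells with both genes depends on depth. In RA+BMP4 (8.88%) it was 7.22% with at least 1 Barhl UMI, 4.47% at 3000 UMIs, 16.2% without thinning and 4.94% with at least 2 UMIs of each, and in RA (4.17%) 0 under the stricter filter and 9.59% without thinning.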
